A study of Mus musculus with 6 samples.

Results

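The acute phase response genes described here are 34 genes, chosen by name from the 57180 genes of the deposited table: plasma proteins whose production in the liver rises in inflammation, receptors for the cytokines that drive them, and transcription and feedback factors that act between them. Primary hepatocytes of male mice were sequenced in 6 libraries, 3 labelled LOXP and 3 labelled KO. LOXP mice carry floxed STING without a stated Cre, and KO mice are STINGLKO, in which the floxed gene was crossed to Albumin-Cre, a recombinase driven by a promoter active in hepatocytes. The cells of both groups were kept in MEM alpha with 10% fetal bovine serum and 0.1 µM dexamethasone, a synthetic glucocorticoid, and all 6 libraries, the LOXP controls included, come from cells given 0.1 mM palmitate for 24 h, so that no library shows the genes without the fatty acid. Mice were 8 to 10 weeks old, an age stated for all animals together and not for these libraries in particular. The labels do not say whether the 3 libraries of a group are 3 mice, so the p-values measure only the spread between these libraries, which may be technical.

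In the acute phase response, interleukin-6 (IL-6) family cytokines act through the shared receptor chain gp130 and the transcription factor STAT3, while interleukin-1 (IL-1) acts through NF-kappa B and C/EBP factors, and hepatocytes answer by secreting large amounts of plasma proteins. Glucocorticoids raise the response of many of these genes to the cytokines. In mice the serum amyloid A proteins and serum amyloid P are its best known markers, and C-reactive protein, the marker used in people, responds weakly.

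The comparison asks how expression of these genes in palmitate-treated hepatocytes differed between the genotypes. The data showed a lower RNA level of most of the genes for secreted proteins in the KO libraries, and no protein was measured. All 34 genes passed the low-count filter, as did 14151 genes in all. By edgeR's quasi-likelihood test, with p-values adjusted by the Benjamini-Hochberg method over those 14151 genes and a threshold of 0.05, 25 of the 34 were lower in KO and 0 were higher, against 11.6% of all genes tested that were lower and 11.5% that were higher. At an unadjusted p under 0.05 30 were lower and 0 were higher, and DESeq2 called 27 lower and 0 higher. Of these, 11 also met the study's criteria for a differentially expressed gene (DEG), which also ask for an absolute log2 fold change above 1 and for 1 group with a mean FPKM above 1, where FPKM is the count scaled by both gene length and library size. The share of all genes tested that met them was 1.49% for lower and 0.558% for higher genes, and 0 members met them as higher. The 11 were the serum amyloid A genes *Saa1*, *Saa2*, *Saa3* and *Saa4*, the orosomucoids *Orm2* and *Orm3*, haptoglobin *Hp*, hemopexin *Hpx*, and *Steap4*, *Lbp* and *Itih4*. The median log2 fold change of the members was -0.76, and that of all genes tested was -0.0021. In 28 of the 34 genes every KO library lay below every LOXP library, in 0 every KO library lay above, and in 6 the groups overlapped. Among all genes tested 20.3% had KO below LOXP in this sense and 20.4% had it above. Restricted to genes with a mean FPKM above 10, 20 of 24 members were lower, with 13.2% of such genes lower and 18.3% higher in the whole table, and 9 were DEGs lower in KO, against 1.49%.

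**Figure D1:**
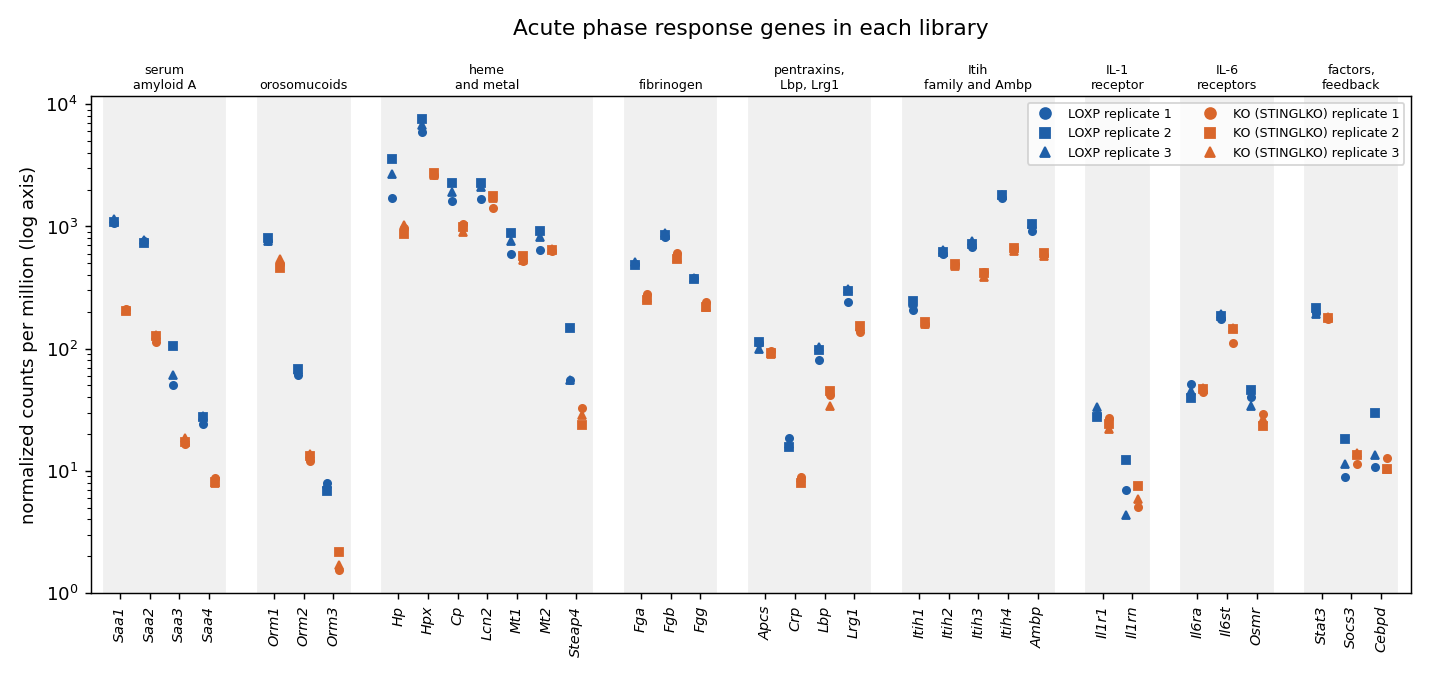
Level of each of the 34 genes in each library, in normalized CPM (counts scaled by library size and TMM factor) on a log axis, with LOXP in blue, KO in orange and a marker shape for each replicate number. The KO points lie below the LOXP points in 28 genes, and the square of LOXP replicate 2 stands above the others for Saa3, Hp, Steap4, Il1rn, Socs3 and Cebpd.

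**Figure D2:**
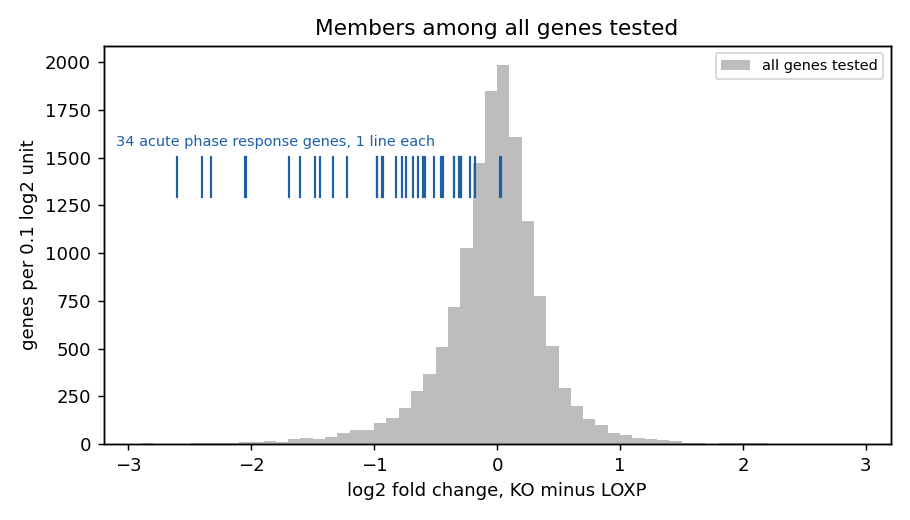
Distribution of the log2 fold change (KO minus LOXP) of all genes tested, in bins of 0.1, with a blue line for each member; 23 genes lie outside the axis. Most members lie left of 0, with a median of -0.76, a value at or below which 5.46% of all genes tested lie.

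Counted reads per library ran from 14726983 to 18536985, and albumin (*Alb*), the main plasma protein made by hepatocytes, had an FPKM of 6468 to 7791. *Sting1*, the targeted gene, had 19, 16 and 23 counts in the LOXP libraries and 24, 23 and 15 in the KO libraries, a log2 fold change of -0.08 (95% interval -0.76 to 0.60, adjusted p = 0.883). Its counts therefore do not separate the groups, and since the table gives 1 count per gene, reads from the deleted stretch alone were not analysed here. The RT-PCR of sting mRNA made for the work was not used here either. LOXP and KO name the libraries by their labels in all that follows. Hepatocyte markers were themselves lower in the KO libraries in 10 of 13 genes tested, with a median log2 fold change of -0.39. Among all genes tested 11.6% were lower and 11.5% were higher, and the counts of macrophage and endothelial markers called lower are near that share. Of other cell types, macrophage markers were lower in 2 of 12 genes tested (*Cd68* and *Mpeg1*) with a summed FPKM of 66.7 to 83.6 in LOXP and 53.1 to 62.8 in KO. *Cd68* alone had an FPKM of 34.9 to 40.1 in LOXP and 19.5 to 22.8 in KO. Of the 12, 5 had a log2 fold change above 0, and *Cd5l*, at 2.31 to 7.97 CPM in LOXP and 9.33 to 11.6 in KO, had 0.94 (adjusted p = 0.0853 by edgeR). DESeq2 called 2 macrophage markers lower and 1 higher, as did an unadjusted p under 0.05 in edgeR. Endothelial markers were lower in 1 of 7 (*Stab2*), with a summed FPKM of 26.5 to 27.9 in LOXP and 24.1 to 26.6 in KO. Of 4 bile duct markers tested 3 were lower (*Cldn4*, *Sox9* and *Spp1*) and *Krt19* was higher (adjusted p = 0.0479 by edgeR). DESeq2 called 3 lower and 0 higher. The summed FPKM of the list was 119 to 140 in LOXP and 61.8 to 72.8 in KO. Most of it was *Cldn4*, with 99.3 to 117 in LOXP and 51.4 to 61.0 in KO. *Krt7*, *Epcam* and *Cftr* had 0 to 12 counts per library and were not tested, so the sum is no measure of bile duct cells. Neutrophil markers were at or near 0, with 4 of 9 at 0 counts in every library and 13 counts in all. Stellate cell markers had 0 of 7 called by edgeR and by DESeq2, with 1 higher at an unadjusted p under 0.05. A smaller number of cells of a type and less RNA per cell cannot be told apart in such libraries. The part of these differences in the results below was not tested. Scaling the libraries to the hepatocyte markers gave the members' levels relative to those markers only. This moved the median of all genes from -0.0021 to 0.38 and that of the members from -0.76 to -0.38. Such scaling shifts all genes by nearly the same amount, so it cannot change how low the members stand against the median of all genes. On this scale 20 members were lower, against 3.94% of all genes tested, and 2 were higher (*Il6ra* and *Stat3*), against 53% of all genes tested.

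The promoters of 8 members are shown here because their genes span the range of response, from the most reduced pairs to a pair that differed little. They also hold letters of the short patterns searched here for the pathway's factors. Promoter sequences came from RefSeq on build GRCm38.p6, which differs from the build of the table (GRCm39, by the submitters' processing notes), and are given 5′ to 3′ on the gene's strand, as the 250 bases before the start. Of the 34 genes 30 had a promoter there, and *Cebpd*, *Hp*, *Orm1* and *Lbp* had none. Capitals mark C/EBP-type matches (TTNNGNAAT) in *Saa1*, *Saa2* and *Orm2*, a STAT3-type match (TTCNNNGAA) in *Itih4*, STAT3-type matches and type II IL-6 elements (CTGGGAA) in *Steap4* and *Fgb*, a further C/EBP-type match in *Steap4*, and metal response elements (TGCACNC or TGCGCNC) in *Mt1* and *Mt2*, each searched on both strands. *Saa1* lies at chr7:46742981-46743230 (minus strand), *Saa2* at chr7:46751583-46751832 (plus), *Orm2* at chr4:63362199-63362448 (plus), *Steap4* at chr5:7960222-7960471 (plus), *Fgb* at chr3:83049864-83050113 (minus), *Itih4* at chr14:30886226-30886475 (plus), *Mt1* at chr8:94178839-94179088 (plus) and *Mt2* at chr8:94172368-94172617 (plus).
Saa1: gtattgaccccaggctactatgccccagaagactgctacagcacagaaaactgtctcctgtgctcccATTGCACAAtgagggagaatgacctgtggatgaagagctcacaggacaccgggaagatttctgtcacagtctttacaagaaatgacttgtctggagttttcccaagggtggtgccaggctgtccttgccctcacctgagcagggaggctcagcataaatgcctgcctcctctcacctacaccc
Saa2: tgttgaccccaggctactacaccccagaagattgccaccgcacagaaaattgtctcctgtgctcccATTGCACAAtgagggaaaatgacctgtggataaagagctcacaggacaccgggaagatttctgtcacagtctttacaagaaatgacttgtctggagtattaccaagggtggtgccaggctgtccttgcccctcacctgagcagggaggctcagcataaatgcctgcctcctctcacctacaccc
Orm2: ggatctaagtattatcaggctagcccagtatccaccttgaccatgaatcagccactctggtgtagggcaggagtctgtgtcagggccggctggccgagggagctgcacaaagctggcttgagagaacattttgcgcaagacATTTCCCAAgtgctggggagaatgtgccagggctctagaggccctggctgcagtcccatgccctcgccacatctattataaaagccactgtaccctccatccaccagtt
Steap4: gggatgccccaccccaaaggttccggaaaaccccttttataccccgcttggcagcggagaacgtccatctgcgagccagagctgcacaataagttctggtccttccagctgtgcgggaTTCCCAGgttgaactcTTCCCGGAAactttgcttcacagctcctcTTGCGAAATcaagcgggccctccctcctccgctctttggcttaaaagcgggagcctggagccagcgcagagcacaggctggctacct
Fgb: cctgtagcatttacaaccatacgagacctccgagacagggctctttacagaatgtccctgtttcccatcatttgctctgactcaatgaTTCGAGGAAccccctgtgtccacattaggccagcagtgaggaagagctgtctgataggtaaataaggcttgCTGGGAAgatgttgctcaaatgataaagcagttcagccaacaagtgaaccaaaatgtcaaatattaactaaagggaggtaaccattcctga
Itih4: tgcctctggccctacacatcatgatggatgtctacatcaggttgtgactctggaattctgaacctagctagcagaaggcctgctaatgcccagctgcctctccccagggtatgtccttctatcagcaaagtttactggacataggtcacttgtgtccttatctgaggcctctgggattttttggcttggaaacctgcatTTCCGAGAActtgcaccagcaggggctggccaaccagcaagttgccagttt
Mt1: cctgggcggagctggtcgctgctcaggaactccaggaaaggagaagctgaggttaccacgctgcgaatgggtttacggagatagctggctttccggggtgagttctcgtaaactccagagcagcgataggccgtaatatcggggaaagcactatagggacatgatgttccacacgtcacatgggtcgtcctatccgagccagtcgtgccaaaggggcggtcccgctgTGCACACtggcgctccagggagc
Mt2: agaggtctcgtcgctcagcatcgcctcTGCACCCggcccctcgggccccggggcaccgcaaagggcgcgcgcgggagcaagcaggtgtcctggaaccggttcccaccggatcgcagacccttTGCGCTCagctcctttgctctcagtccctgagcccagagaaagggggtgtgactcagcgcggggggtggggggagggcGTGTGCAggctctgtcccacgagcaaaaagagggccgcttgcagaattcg

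The *Saa1* and *Saa2* promoters were identical at 238 aligned positions, with 11 mismatches and 2 gap positions (94.8% identity), and both held the C/EBP-type letters, from base 183 and base 184 before the start. The *Mt1* and *Mt2* promoters were 48.0% identical. Matches in *Steap4* stood close together, the type II IL-6 element at 132, the STAT3-type at 116 and the C/EBP-type at 87 bases before the start, counted at the first base. STAT3-type letters were found in 6 of the 30 genes (*Steap4*, *Fga*, *Fgb*, *Apcs*, *Itih4* and *Socs3*), against 8.13% of the 27025 genes and 7.02% of the 32851 promoters in the reference. The type II element was found in 6 (*Steap4*, *Fgb*, *Fgg*, *Apcs*, *Lrg1* and *Il1rn*), against 10.4% of genes and 9.10% of promoters. The C/EBP-type letters were found in 8 (*Saa1*, *Saa2*, *Orm2*, *Steap4*, *Crp*, *Itih1*, *Il1r1* and *Il1rn*), against 11.7% and 10.2%, and the metal response element in 4 (*Orm3*, *Mt1*, *Mt2* and *Fgg*), against 23.8% and 21.4%. Each window ends at the start given in the reference, and elements after that start, in *Mt1* as in the others, were not searched. An NF-kappa B-type match (GGANNTTCC) was found in *Stat3* alone, against 4.12% and 3.59%. A match describes letters in this window and is not a measured site, and genes with the STAT3-type letters include both DEGs (*Steap4* and *Itih4*) and genes without a call (*Apcs* and *Socs3*). Only exact fits to the stated letters were counted, so these numbers leave out close variants. *Orm2*, for example, holds ttgcgcaag, which differs from the C/EBP-type letters in its last base alone and is unmarked.

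The serum amyloid A genes, which encode apolipoproteins carried on high-density lipoprotein, had the lowest median log2 fold change of the groups below, -2.22, and all 4 were lower in KO and met the DEG criteria. They lie together on chromosome 7 of the table's build within 42316 bp, in the order *Saa3*, *Saa4*, *Saa1* and *Saa2*. *Saa1*, a major inducible form, had 1065, 1080 and 1148 normalized CPM in LOXP replicates 1, 2 and 3 and 210, 204 and 208 in KO replicates 1, 2 and 3. The 3 KO values lay close together, with a coefficient of variation of 1.43%, and every LOXP value was far above them. The log2 fold change was -2.40 ± 0.05 (SE), or 5.29-fold lower in KO (adjusted p = 3.47e-08, edgeR quasi-likelihood). *Saa2*, the second inducible form, had 763, 729 and 768 CPM in LOXP and 113, 128 and 130 in KO, with a log2 fold change of -2.60 ± 0.07 (adjusted p = 1.19e-07). It had the largest fall of the 34 genes in this fit. Because reads can be split between these near-identical copies, their counts were also summed, and the sum fell by 2.48 on the log2 scale, or 5.58-fold (adjusted p = 2.04e-08). *Saa2* made up 40.1% to 41.7% of the sum in LOXP and 35.0% to 38.5% in KO, groups that did not overlap (exact permutation p = 0.1, two-sided, the smallest that 3 libraries against 3 allow).

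*Saa3*, a form made outside the liver as well as in it, was less abundant and more variable. It had 50.5, 105 and 60.5 CPM in LOXP and 16.5, 17.1 and 18.7 in KO, with LOXP replicate 2 well above its own group. The log2 fold change was -2.04 ± 0.25 (adjusted p = 9.00e-04), and -1.67 without that library (adjusted p = 8.75e-05). *Saa4*, known as the constitutive form of the family, had 24.2, 27.7 and 28.0 CPM in LOXP and 8.73, 8.04 and 7.93 in KO, a log2 fold change of -1.69 ± 0.10 (adjusted p = 3.79e-05). The whole family took 0.189% to 0.199% of counted reads in LOXP and 0.0353% to 0.0373% in KO, and its summed FPKM was 588 to 619 against 112 to 117.

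The orosomucoids, also called alpha-1-acid glycoproteins, carry drugs and lipophilic molecules in plasma, and the 3 genes fell by unequal amounts. They lie within 21319 bp on chromosome 4. *Orm1*, the most abundant, had 763, 798 and 763 CPM in LOXP and 495, 458 and 538 in KO, a log2 fold change of -0.64 ± 0.06 (adjusted p = 3.80e-04). *Orm2* had 61.3, 68.1 and 66.3 CPM in LOXP and 11.98, 13.3 and 13.8 in KO, a log2 fold change of -2.32 ± 0.08 (adjusted p = 1.33e-06). In both genes the groups were far apart relative to their spread. The counts of *Orm2* as a share of *Orm1* and *Orm2* together do not depend on how the libraries were scaled, and were 7.43%, 7.87% and 7.995% in LOXP and 2.36%, 2.82% and 2.49% in KO (exact permutation p = 0.1, two-sided). *Orm3*, the least abundant copy, had 7.89, 6.78 and 7.77 CPM in LOXP and 1.53, 2.16 and 1.69 in KO, from 97 to 125 counts per LOXP library and 24 to 40 per KO library, with a log2 fold change of -2.05 ± 0.18 (adjusted p = 2.42e-04). Summed over the 3 copies, among which reads may be shared, the log2 fold change was -0.73 (adjusted p = 2.02e-04).

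Of 7 genes for binding heme, hemoglobin, iron, copper or zinc, 5 were lower in KO and 2 did not pass the test. *Hpx*, hemopexin, which binds free heme, was the most abundant of the 34 genes per length, with a mean FPKM of 3802 in LOXP and 1548 in KO. Its normalized CPM was 5891, 7572 and 6764 in LOXP and 2645, 2727 and 2654 in KO. The 3 KO libraries differed little from each other, with a coefficient of variation of 1.67%, and the log2 fold change was -1.33 ± 0.08 (adjusted p = 4.24e-05). *Hp*, haptoglobin, which binds free hemoglobin, had 1725, 3555 and 2711 CPM in LOXP and 967, 873 and 1021 in KO. The LOXP libraries ranged widely and none overlapped with KO, for a log2 fold change of -1.48 ± 0.22 (adjusted p = 0.00220) and of -1.22 without LOXP replicate 2. *Hp* as a share of *Hp* and *Hpx* counts overlapped between the groups, at 22.7% to 32.0% in LOXP and 24.2% to 27.8% in KO (exact permutation p = 0.6). *Cp*, ceruloplasmin, a copper-carrying ferroxidase, had 1625, 2280 and 1912 CPM in LOXP and 1057, 994 and 900 in KO, with a log2 fold change of -0.98 ± 0.12 (adjusted p = 8.02e-04). The locus of *Cp* overlaps *Hps3*, whose counts were 0.987% of its own.

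*Steap4*, a metalloreductase of iron and copper, was lower in KO, but its size depended on LOXP replicate 2. It had 55.7, 149 and 55.5 CPM in LOXP and 32.8, 23.8 and 28.7 in KO, so that LOXP replicate 2 stood far above the other libraries of its group, and the groups did not overlap. The log2 fold change was -1.61 ± 0.37 (adjusted p = 0.0162), or 3.04-fold. Without LOXP replicate 2 it was -0.97 (adjusted p = 0.00213), which no longer met the DEG criterion on size, and without KO replicate 2 or 3 it was -1.49 and -1.61, with adjusted p of 0.0627 and 0.0532.

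The genes of the metallothioneins, small proteins that bind zinc and copper, and of lipocalin 2 differed least in this group. *Mt1* had 593, 886 and 766 CPM in LOXP and 522, 575 and 535 in KO, a log2 fold change of -0.46 ± 0.13 (adjusted p = 0.0317). That call was lost without LOXP replicate 2 or 3 and without KO replicate 1, 2 or 3, with adjusted p from 0.0650 to 0.100. *Mt2* had 636, 919 and 820 CPM in LOXP and 627, 639 and 649 in KO, groups that overlapped, and its log2 fold change of -0.31 (95% interval -0.57 to -0.05) had an adjusted p of 0.0881. It passed with DESeq2 (adjusted p = 0.0285) and without LOXP replicate 1 (adjusted p = 0.00294). The sum of both genes had a log2 fold change of -0.38 (adjusted p = 0.0499), and of 0.00094 with the hepatocyte markers as scale. Its call was lost without LOXP replicate 2 or 3 and without KO replicate 1, 2 or 3 (adjusted p from 0.106 to 0.136). *Lcn2*, lipocalin 2, which binds the iron carriers of bacteria, had 1670, 2253 and 2124 CPM in LOXP and 1425, 1789 and 1723 in KO. Its groups overlapped, with a log2 fold change of -0.29 (95% interval -0.57 to -0.02) and an adjusted p of 0.117 by edgeR, 0.0467 by DESeq2 and 0.0225 without LOXP replicate 1. Hepatocyte marker scaling turned the sign of *Mt2* and *Lcn2* (0.07 and 0.09).

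**Figure D3:**
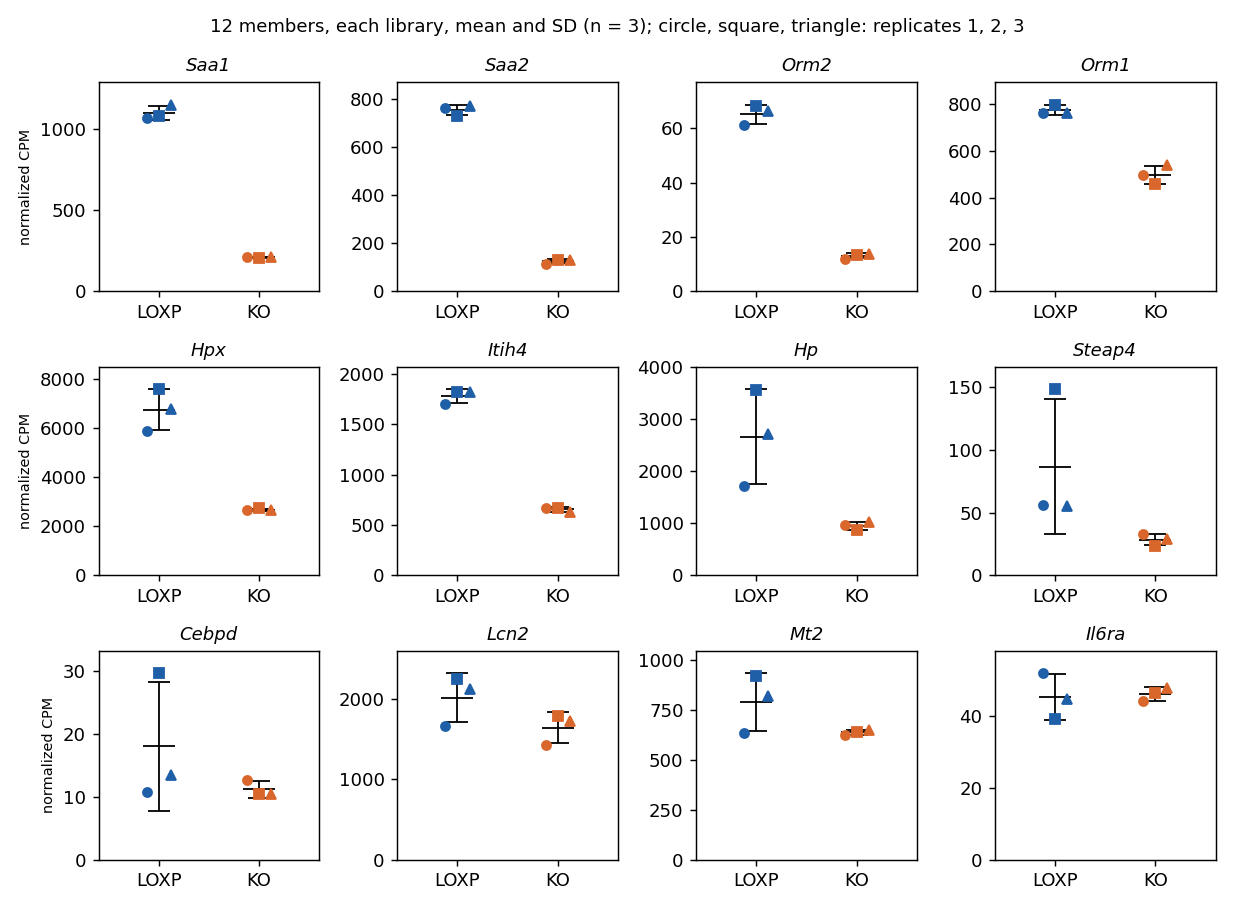
Normalized CPM of 12 members in each library on linear axes from 0, with LOXP in blue and KO in orange; the horizontal line is the mean and the bar the SD (n = 3). Saa1, Saa2, Orm2 and Itih4 show tight groups far apart, Hp, Steap4 and Cebpd a high LOXP replicate 2, and Lcn2, Mt2 and Il6ra groups that overlap.

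The genes of the 3 fibrinogen chains, which assemble into the clotting protein cleaved to fibrin, were all lower in KO, by less than 1 on the log2 scale. They are neighbours on chromosome 3, within 42140 bp. *Fga*, the alpha chain, had 497, 486 and 516 CPM in LOXP and 281, 248 and 259 in KO, a log2 fold change of -0.93 ± 0.06 (adjusted p = 4.95e-05). *Fgb*, the beta chain, had 823, 851 and 890 CPM in LOXP and 610, 543 and 551 in KO, a log2 fold change of -0.59 ± 0.06 (adjusted p = 3.84e-04). *Fgg*, the gamma chain, had 378, 375 and 378 CPM in LOXP, a coefficient of variation of 0.504% that was the lowest of the 34 genes, and 240, 218 and 218 in KO, a log2 fold change of -0.74 ± 0.06 (adjusted p = 8.81e-05). The 3 genes did not fall by the same amount. *Fga* was 36.3% to 37.6% of *Fga* and *Fgb* counts in LOXP and 31.4% to 31.9% in KO (exact permutation p = 0.1).

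Of the genes for pentraxins and the other plasma proteins of host defence, 3 of 4 were lower in KO. *Apcs*, serum amyloid P, an acute phase pentraxin of the mouse, was among the least changed genes for secreted proteins. It had 112, 112 and 99.0 CPM in LOXP and 95.7, 91.7 and 90.3 in KO, groups that did not overlap, with a log2 fold change of -0.22 (95% interval -0.38 to -0.06) and an adjusted p of 0.0533. The adjusted p was 0.0417 with upper-quartile factors, 0.0456 where every library needed 10 counts and 0.0304 without LOXP replicate 3, while hepatocyte marker scaling turned the sign (0.16). *Crp*, C-reactive protein, the other pentraxin, was less abundant per length than *Apcs*, with a mean FPKM over all libraries of 3.52 against 103. It had 18.4, 15.6 and 16.5 CPM in LOXP and 8.92, 7.93 and 8.81 in KO, a log2 fold change of -0.98 ± 0.11 (adjusted p = 6.78e-04). *Lbp*, which presents bacterial lipopolysaccharide to its receptor, had 80.4, 97.8 and 103 CPM in LOXP and 41.8, 44.7 and 33.998 in KO, a log2 fold change of -1.22 ± 0.13 (adjusted p = 4.11e-04). *Lrg1*, a leucine-rich glycoprotein of plasma, had 243, 296 and 305 CPM in LOXP and 137, 154 and 150 in KO, a log2 fold change of -0.94 ± 0.09 (adjusted p = 3.38e-04). *Apcs* as a share of *Apcs* and *Lbp* counts was 49.1% to 58.2% in LOXP and 67.2% to 72.6% in KO (exact permutation p = 0.1).

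The inter-alpha-trypsin inhibitor family forms plasma protease inhibitors that also bind hyaluronan, and its 5 genes were all lower in KO, except that *Itih2* was at 0.03 with hepatocyte marker scaling. *Itih4*, a heavy chain that does not join the light chain bikunin, had 1698, 1819 and 1822 CPM in LOXP and 669, 665 and 629 in KO. Both groups were narrow and far apart, and the log2 fold change was -1.44 ± 0.05, or 2.72-fold (adjusted p = 1.20e-06). *Itih3*, its neighbour on chromosome 14, had 680, 725 and 757 CPM in LOXP and 420, 414 and 385 in KO, a log2 fold change of -0.83 ± 0.06 (adjusted p = 7.81e-05). *Itih1*, next to it, had 208, 248 and 237 CPM in LOXP and 160, 166 and 160 in KO, a log2 fold change of -0.51 ± 0.07 (adjusted p = 0.00166). *Itih2*, which lies on chromosome 2, had 598, 618 and 645 CPM in LOXP and 492, 494 and 475 in KO, the smallest called change of the 34 genes, at -0.35 ± 0.05 (adjusted p = 0.00175). *Ambp*, which encodes both bikunin and alpha-1-microglobulin, had 913, 1049 and 1054 CPM in LOXP and 587, 605 and 571 in KO, a log2 fold change of -0.77 ± 0.06 (adjusted p = 1.63e-04). The heavy chain genes fell unequally, since *Itih4* was 73.8% to 74.6% of *Itih4* and *Itih2* counts in LOXP and 56.9% to 57.6% in KO (exact permutation p = 0.1). With hepatocyte marker scaling the call of *Itih1* was also lost (adjusted p = 0.138).

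**Figure D4:**
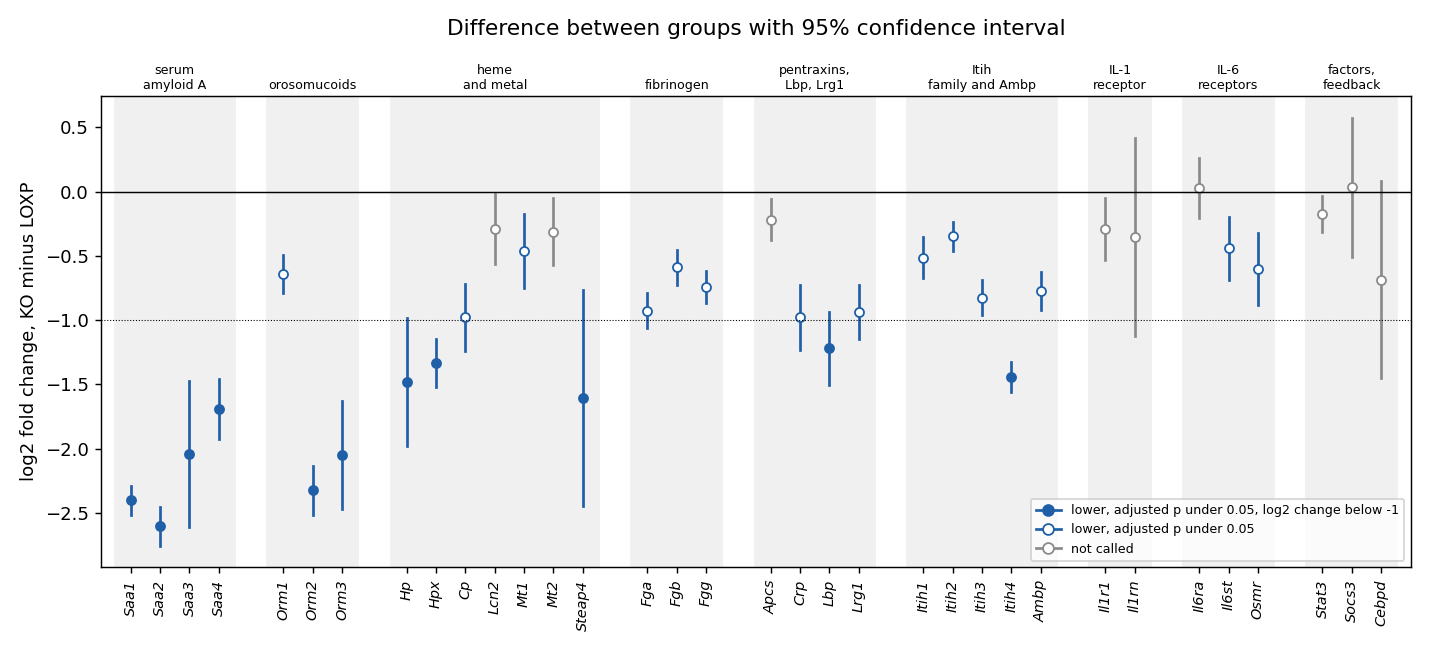
Log2 fold change of each gene (KO minus LOXP) with its 95% confidence interval from the edgeR fit (n = 3 libraries per group), ordered by role; filled points met the DEG criteria, open blue points had an adjusted p under 0.05 and grey points did not pass. The 11 filled points lie from -1.22 to -2.60, and the receptors and transcription factors on the right lie nearer to 0 than the serum amyloid A genes on the left.

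Of the genes of 3 receptor chains of the IL-6 family 2 were lower. *Il6st*, which encodes gp130, the signalling chain shared by receptors of the IL-6 family, had 174, 185 and 191 CPM in LOXP and 111, 145 and 149 in KO, a log2 fold change of -0.44 ± 0.11 (adjusted p = 0.0196, and 0.0641 without LOXP replicate 3). *Osmr*, the receptor chain for oncostatin M, had 40.4, 45.5 and 33.97 CPM in LOXP and 29.0, 23.4 and 26.6 in KO, a log2 fold change of -0.60 ± 0.12 (adjusted p = 0.00979). Both calls were lost with hepatocyte marker scaling (adjusted p = 0.669 and 0.126). *Il6ra*, the chain that binds IL-6 itself, had 51.8, 39.1 and 44.8 CPM in LOXP and 44.1, 46.4 and 47.8 in KO, groups that overlapped, with a log2 fold change of 0.03 (95% interval -0.21 to 0.26, adjusted p = 0.883).

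For the IL-1 arm edgeR called 0 of 2 genes, DESeq2 also 0, and 1 was lower at an unadjusted p under 0.05. *Il1r1*, the signalling receptor, had 28.7, 27.6 and 33.2 CPM in LOXP and 27.0, 24.3 and 21.9 in KO, a log2 fold change of -0.29 (95% interval -0.53 to -0.05, adjusted p = 0.0868). *Il1rn*, the secreted antagonist of that receptor, had 7.005, 12.2 and 4.35 CPM in LOXP and 5.04, 7.45 and 5.89 in KO, a log2 fold change of -0.35 (95% interval -1.12 to 0.42, adjusted p = 0.505) with a sign that turned without LOXP replicate 2 (0.11). Hepatocyte marker scaling also turned both signs (0.09 and 0.04).

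For the transcription and feedback factors 0 of 3 genes passed by edgeR or by DESeq2, and 1 was lower at an unadjusted p under 0.05. *Stat3*, the factor that carries the IL-6 signal to the nucleus, had 196, 217 and 192 CPM in LOXP and 176, 179 and 181 in KO. The groups did not overlap, and the difference was small, with a log2 fold change of -0.18 (95% interval -0.32 to -0.04, adjusted p = 0.0726) that turned to 0.21 (adjusted p = 0.0149) with hepatocyte marker scaling. *Socs3*, the feedback inhibitor that STAT3 induces, had 8.84, 18.04 and 11.3 CPM in LOXP and 11.3, 13.5 and 14.1 in KO, a log2 fold change of 0.03 (95% interval -0.51 to 0.57, adjusted p = 0.939). *Cebpd*, the C/EBP factor induced in the response, had 10.8, 29.6 and 13.5 CPM in LOXP and 12.6, 10.4 and 10.4 in KO, and its log2 fold change of -0.69 (95% interval -1.45 to 0.08, adjusted p = 0.182) became -0.12 without LOXP replicate 2. The annotated loci of *Stat3* and *Cebpd* overlap *Stat5a* and *Spidr*, whose counts were 12.9% and 84.4% of theirs, and the strand setting of the counting is not given in the sources used here.

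The LOXP libraries were the more variable group for several of these genes. The coefficient of variation exceeded 30% in LOXP for 6 members, *Saa3*, *Hp*, *Steap4*, *Il1rn*, *Socs3* and *Cebpd*, and for 0 in KO, where the highest was 19.96%. In all 6 the highest library was LOXP replicate 2. That library was also the highest of the 6 libraries for 17 members, with 14 for LOXP replicate 3, 3 for replicate 1 and 0 for any KO library. It alone held counts of *Il1b*, the gene of the cytokine IL-1 beta, with 75 and with 0 in the other 5 libraries, and had 109 counts of *Il1a* against 7 to 14 elsewhere and 29 of *Il6* against 0 to 4. *Nfkbia* and *Nfkbiz*, which NF-kappa B induces and which encode proteins of the I-kappa B family, stood at 153 and 115 CPM there, against 42.9 to 46.4 and 21.2 to 27.2 in the other libraries. Markers of other cell types were mixed in that library. *Clec4f*, *Cd5l* and *Kdr* were lowest there, at 2.10, 2.31 and 6.29 CPM. The other libraries had 4.02 to 5.74, 6.18 to 11.6 and 10.5 to 17.3. *Adgre1*, *Csf1r* and *Cdh5* had their highest LOXP level there. The weight of that library in the group difference was measured by leaving it out, while the part of these cytokine, NF-kappa B and marker genes was not tested. Without the library 24 members were lower at an adjusted p under 0.05, against 8.92% of all genes tested in that fit, and 11 met the DEG criteria, against 1.33%. Of these 11, 10 were shared with the fit to all libraries, *Steap4* had left and *Crp* had come in (-1.03, adjusted p = 0.00142). The median of the members was then -0.74.

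**Figure D5:**
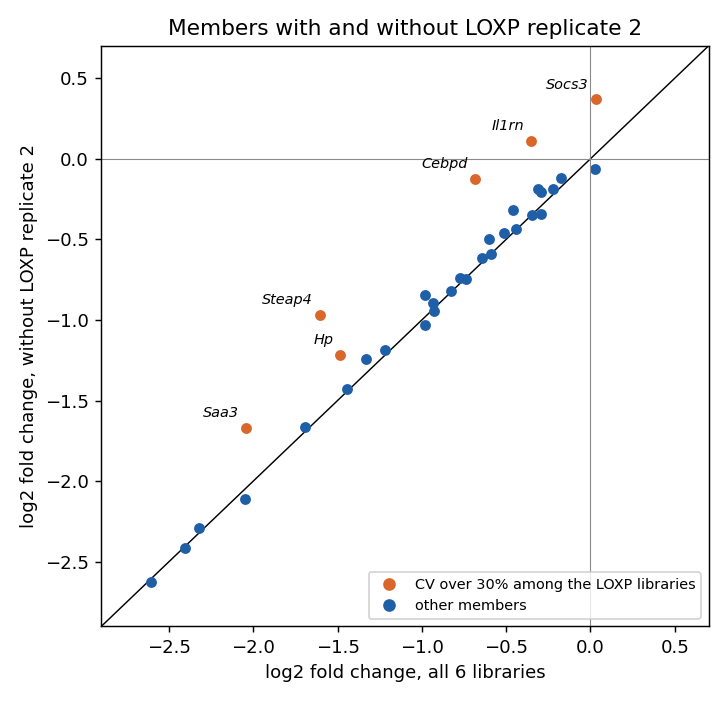
Log2 fold change of each member in all 6 libraries (x axis) and without LOXP replicate 2 (y axis), with the line of equality; orange points have a coefficient of variation (CV) over 30% among the LOXP libraries. The orange points lie above the line, with Steap4 at -1.61 and -0.97 and Cebpd at -0.69 and -0.12, and Saa1 and Saa2 lie close to it.

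As a share of the library the 34 genes took 2.16%, 2.69% and 2.51% of counted reads in LOXP replicates 1, 2 and 3 and 1.24%, 1.25% and 1.27% in the KO replicates. The KO libraries were close to each other, and all lay below LOXP (exact permutation p = 0.1). Ordered by mean FPKM over all libraries, the most abundant were *Hpx* at 2675, *Mt2* at 855, *Orm1* at 817, *Hp* at 754 and *Ambp* at 482, and the least abundant was *Il1rn* at 0.858. Those FPKM values rest on gene lengths that are not given. Calculated back from counts and FPKM, the lengths run from 773 bp for *Orm3* to 17535 bp for *Il6st*, and the order by FPKM depends on them. The length so implied for *Mt1*, 2267 bp, is longer than its locus (chr8:94905710-94906955), and that for *Mt2* is 833 bp.

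Other genes of the pathways were read from lists beside the members. The counts in all of these lists are to be read against the 11.6% of all genes tested that were lower and the 11.5% that were higher. The lower genes of IL-6 family signalling and of the glucocorticoid list are near that share. Of 10 tested genes of IL-6 family signalling, 1 was lower, the kinase *Jak2* (log2 fold change -0.34, adjusted p = 0.0109), and 0 were higher by edgeR, by DESeq2 or at an unadjusted p under 0.05. Among the ligands, *Osm* had 1 count in all and *Il11* 3 to 12 per library, and *Lif* had 109 to 309 counts with a log2 fold change of -0.36 (adjusted p = 0.525). Of 16 tested genes of IL-1 signalling, 4 were lower and 0 higher, with DESeq2 at 5 and 0 and 1 higher at an unadjusted p under 0.05. The 4 were the kinase *Irak2* (-1.38, adjusted p = 6.08e-04), which alone met the DEG criteria, the inhibitory receptor *Sigirr* (-0.58, adjusted p = 0.0193), the adaptor ligase *Traf6* (-0.29, adjusted p = 0.0363) and the NF-kappa B subunit *Rela* (-0.29, adjusted p = 0.0213). *Il1a* had a log2 fold change of -2.80 with an adjusted p of 0.0685, and *Il1b* did not pass the low-count filter.

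Of 12 further liver genes tested that are known to respond to IL-6 or IL-1, 5 were lower, 1 was higher and 6 did not pass. *Serpina3n*, a protease inhibitor, had 764, 811 and 767 CPM in LOXP and 360, 370 and 354 in KO, a log2 fold change of -1.11 (adjusted p = 5.10e-06). Complement *C3* (-1.01, adjusted p = 5.02e-05), hepcidin *Hamp* (-0.97, adjusted p = 0.00878), *Fgl1* (-0.77, adjusted p = 3.60e-05) and *C4b* (-0.61, adjusted p = 2.45e-04) were also lower. The protease inhibitor *Timp1* was higher, at 0.63 (adjusted p = 0.0276).

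Of 8 genes for plasma proteins whose production falls in the acute phase, 4 were lower in KO as well. By edgeR, by DESeq2 or at an unadjusted p under 0.05, 0 were higher. The 4 lower genes were *Ahsg*, fetuin-A (-1.31, adjusted p = 3.88e-05), *Trf*, transferrin (-0.63, adjusted p = 3.84e-04), *Ttr*, transthyretin (-0.45, adjusted p = 5.66e-04) and *Alb* (-0.27, adjusted p = 0.00319). *Trf*, *Ttr* and *Alb* were also counted among the hepatocyte markers above, so these lists are not separate observations. The median log2 fold change of the 8 was -0.33, and -0.76 for the 34 members. A glucocorticoid was in the medium of every library. Of 9 genes listed for the glucocorticoid response, the receptor gene among them, 1 was lower, the tyrosine aminotransferase *Tat* (-0.83, adjusted p = 0.00320), and 2 were higher, the kinase *Sgk1* (0.47, adjusted p = 0.0452) and the phosphatase *Dusp1* (0.37, adjusted p = 0.0137). The list for zinc and metal handling or response is mixed, and its genes need not respond as *Mt1* and *Mt2* do. Of its 5 tested genes 0 were lower by edgeR, by DESeq2 or at an unadjusted p under 0.05. In it 2 were higher, *Gclc*, of glutathione synthesis (0.90, adjusted p = 9.05e-05), and heme oxygenase *Hmox1* (0.88, adjusted p = 0.00653), and whether metals play a part was not tested. Differences between lists were not tested.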

How the data were processed

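RNA of 6 libraries (3 LOXP, 3 KO) was analysed, grouped by genotype and title. The submitters' processing notes name fastp, HISAT2, StringTie, edgeR and build GRCm39, and the counting tool's strand setting is not given in the sources used here. The authors deposited, for each of 57180 genes and each library, read counts without normalization and FPKM values, which scale the counts by gene length and counted reads. All columns of values were used, and 0 columns were unmapped. Counted reads per library were 14726983 to 18536985, which sets the precision for low genes.

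Counts were compared in R 4.3.3 with edgeR 4.0.16: filterByExpr with a minimum count of 10, TMM factors, a two-sided quasi-likelihood test and Benjamini-Hochberg adjustment over 14151 genes. Normalized CPM uses the TMM factors. Single values and shares were compared by exact permutation tests. Only the edgeR, DESeq2 and limma fits were tested on simulated counts, with limma on CPM there, and without marker scaling or libraries left out. Alternatives were DESeq2 1.42.0, upper-quartile factors, the likelihood ratio test, 2 other count filters, a replicate block, limma 3.58.1 on log2(FPKM + 1) and log2(FPKM + 0.1), no FPKM criterion and each library left out; scaling to hepatocyte markers was added after the data had been seen. Promoters were aligned with Biopython 1.88, and figures drawn with matplotlib 3.10.9.

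The members and gene lists were chosen with earlier results of these data known. All 34 members are named, with up to 4 called genes and the cytokines of each pathway list. *C4b*, *Timp1*, *Nfkbia*, *Nfkbiz*, *Cd5l*, *Stab2* and *Krt19* were named after their values were seen, as were the pairs of genes compared by their shares. So were *Clec4f*, *Kdr*, *Adgre1*, *Csf1r*, *Cdh5*, *Krt7*, *Epcam* and *Cftr*.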

Additional observations from a re-analysis of the deposited data

How the results depend on the processing

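Every alternative left 20 to 27 of the 34 members lower and 9 to 13 of them DEGs, and 23 to 27 and 10 to 13 when 1 library was left out. With hepatocyte marker scaling 2 members were higher, against 0 in every other setting, *Lcn2*, *Mt2*, *Apcs*, *Itih2*, *Il1r1*, *Il1rn* and *Stat3* turned to log2 fold changes of 0.0897, 0.0715, 0.160, 0.0298, 0.0853, 0.0384 and 0.206, and the *Mt1* and *Mt2* sum turned to 0.00094. This scaling moved each of the 34 members up by 0.376 to 0.394, so that small negative values crossed 0. That sum was -0.38 and not called (adjusted p = 0.0901) with every gene of at least 1 count, and ran from -0.52 to -0.25 when 1 library was left out, with its call lost in all of these fits except that without LOXP replicate 1. Without LOXP replicate 2, *Il1rn* turned to 0.113 and *Il6ra* to -0.0663. Over the libraries left out in turn, *Il1rn* ran from -0.643 to 0.113, *Il6ra* from -0.0663 to 0.134 and *Socs3* from -0.176 to 0.368. *Socs3* turned to -0.176 without LOXP replicate 1, -0.0431 without LOXP replicate 3 and -0.0281 without KO replicate 3. The cause of the turns without single libraries was not tested. The call of *Mt1* was also lost with every gene of at least 1 count, with limma on either FPKM scale and with hepatocyte marker scaling.

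Deviations of same-numbered libraries correlated at 0.120, 0.0834 and 0.0134, so the numbers were not taken as pairs. Every library but LOXP replicate 3 correlated best with its own number, a hint from the data only. With the replicate block 27 members were lower, and *Lcn2* (adjusted p = 0.00392) and *Apcs* (0.0441) then passed. With 3 libraries per group no exact permutation p can be under 0.1, and low genes such as *Orm3* and *Il1rn* rest on 24 to 125 and 66 to 175 counts per library.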
